A study of Mus musculus with 9 samples.

Results

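The 33 genes described here encode the machinery of glycolysis and of the cellular response to low oxygen. They were chosen by name, with no threshold on their values but with earlier results of these data known, and are 33 of the 52476 gene symbols in the deposited tables. They cover glucose and lactate carriers, the enzymes between glucose and lactate, the pyruvate dehydrogenase switch, and the hypoxia-inducible factor (HIF) system. All 33 were found, and 32 entered the test, which took genes that reached an FPKM of 1 in 3 or more libraries. FPKM is the number of fragments on a gene scaled by its transcript length and by the mapped fragments of the library. Slc2a3, a high-affinity glucose carrier gene, stayed below that filter. Epas1 passed it only through the control libraries and Pfkm only through the 6 stimulated ones, so their differences from control are given as values with no test, and counts against control are over the other 30 genes.

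The 9 libraries were mRNA-seq of monocyte-derived dendritic cells, which take up and present antigen. Bone marrow monocytes of C57BL/6 mice had been kept for 7 days in GM-CSF (100 ng/mL) with IL-4 (50 ng/mL), and the resulting cells were sorted. There were 3 groups of 3 libraries: R837 together with spermidine, R837 alone, and control cells without stimulation. R837 (imiquimod) is an agonist of Toll-like receptor 7, and spermidine is a natural polyamine. The protocol text gives 24 h of interferon α before 18 h with R837, and does not say whether control cells were primed too, so priming and R837 cannot be told apart in comparisons with control. Neither the gate of the sort nor whether replicates came from separate animals or cultures is given, so the spread that p-values measure here may be technical.

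Glycolysis splits glucose into pyruvate in a chain of enzymes. Hexokinase and phosphofructokinase are its regulated early steps, and lactate dehydrogenase and the monocarboxylate carriers dispose of the product when it is not burnt in mitochondria. HIF-1 is made of an oxygen-sensitive α subunit and a stable partner: prolyl hydroxylases mark the α subunit for destruction in normal oxygen, and HIF-1 raises many glycolytic genes when they do not. In dendritic cells and macrophages, Toll-like receptor signalling is known to raise glycolysis, and NF-κB is known to raise transcription of Hif1a.

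HIF-1 binds the letters ACGTG or GCGTG, and these letters were searched on both strands in the 250 bases before each RefSeq start (assembly GRCm38.p6). Windows were found for 31 of the 33 genes, all but Slc2a3 and Epas1. The 31 genes have 46 windows, because some have more than 1 annotated start. The letters stood in at least 1 window of 28 of the 31 (90.3%), against 62.2% of the 8309 tested genes with a window and 41.5% of all 27025 genes with one (32851 windows). ACGTG alone, which shares its letters with the CACGTG box when it overlaps one, was in 18 of the 31 (58.1%), against 25.9% of the tested genes. GCGTG, counted in the same way, was in 20 of the 31 (64.5%), against 50.6% of the tested genes. A gene with more windows has more places for a match, and these shares are not adjusted for that. For each of 5 genes that the results turn on, 1 window is shown, so that the promoters can be set beside the measured values. Of these windows 3 hold the letters and 2 do not. Each is written 5′ to 3′ on the gene's strand and ends at the base before the start, and capitals mark the motif in either orientation. The Hk2 window (chr6:82774455-82774704, minus strand) has matches starting 226 and 52 bases before the start, Pgk1 (chrX:106186850-106187099, plus strand) 150 and 131 bases before it, and Egln3 (chr12:54203875-54204124, minus strand) 229 bases before it. The Eno2 window (chr6:124769674-124769923, minus strand) and the upstream one of the 2 Vegfa windows (chr17:46032378-46032627, minus strand) hold neither set of letters, while the downstream Vegfa window, not printed, holds both.
Hk2: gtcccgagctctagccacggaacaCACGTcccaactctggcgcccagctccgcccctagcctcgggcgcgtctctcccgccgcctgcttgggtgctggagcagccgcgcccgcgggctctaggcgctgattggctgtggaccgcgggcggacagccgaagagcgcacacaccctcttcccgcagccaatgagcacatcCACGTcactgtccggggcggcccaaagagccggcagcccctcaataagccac
Pgk1: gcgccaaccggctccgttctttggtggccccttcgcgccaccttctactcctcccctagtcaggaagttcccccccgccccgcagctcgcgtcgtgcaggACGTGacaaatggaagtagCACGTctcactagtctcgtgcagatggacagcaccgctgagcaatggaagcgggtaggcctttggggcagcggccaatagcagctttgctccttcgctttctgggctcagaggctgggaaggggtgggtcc
Egln3: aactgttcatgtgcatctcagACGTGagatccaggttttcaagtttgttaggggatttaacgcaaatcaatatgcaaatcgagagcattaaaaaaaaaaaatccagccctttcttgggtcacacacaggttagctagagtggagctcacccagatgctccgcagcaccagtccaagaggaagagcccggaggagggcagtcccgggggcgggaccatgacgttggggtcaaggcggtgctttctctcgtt
Eno2: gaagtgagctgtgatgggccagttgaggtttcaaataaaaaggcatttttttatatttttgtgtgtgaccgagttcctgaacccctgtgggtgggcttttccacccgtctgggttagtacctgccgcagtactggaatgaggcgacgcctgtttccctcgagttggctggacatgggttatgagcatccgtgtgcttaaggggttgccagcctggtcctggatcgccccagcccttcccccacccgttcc
Vegfa: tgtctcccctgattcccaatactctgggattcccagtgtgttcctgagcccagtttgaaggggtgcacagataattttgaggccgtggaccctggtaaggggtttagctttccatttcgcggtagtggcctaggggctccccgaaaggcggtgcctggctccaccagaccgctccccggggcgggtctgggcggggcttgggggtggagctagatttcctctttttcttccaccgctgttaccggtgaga
A match is a string of letters, not a measured binding site.

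The libraries held an estimated 10700000 to 14500000 counted units as read from the low values. An FPKM of 1 on a transcript of 1 kb would then rest on 10.7 to 14.5 units. At these depths 32.4% to 37.9% of the low values lay within 0.1 of a whole number of units, against 20% if evenly spread. The depths were fitted to these same low values, so that share is no separate check of them. Of 12 dendritic cell markers 10 averaged 1 FPKM or more, Cd209a was listed at 0 in every library, and macrophage markers were also high (10 of 12). R837 libraries 2 and 3 stood apart. The 9 erythroid markers found summed to 0.135 to 0.262 FPKM with R837 and spermidine, to 0.0307, 279 and 1991 in R837 libraries 1, 2 and 3, and to 0.207 to 11.3 in controls. In R837 library 1 all but Alas2 were at 0. The 12 neutrophil markers summed to 401 FPKM in R837 library 3 and to between 53.9 and 78.1 in the other 8 libraries. Immediate early and heat shock genes, which respond to handling and stress, summed to 849 to 906 FPKM with R837 and spermidine, 746 to 842 with R837 and 694 to 719 in controls. Singly they moved both ways. Of the 11 tested, 5 rose and 4 fell with R837 against control (81.8%, against 43.2% of all tested genes). With spermidine added, 6 rose and 2 fell (72.7%, against 13.6%). Their part in the results was not tested. Because R837 libraries 2 and 3 stood apart, results with only R837 library 1 kept in its group are given where the call differs. As the treatment check, Tnf had a mean of 402 ± 35.0 FPKM with R837 and spermidine, 1239 ± 88.8 with R837 and 24.1 ± 1.83 in controls (SD, n = 3 each). Hmox1, the stress-induced heme oxygenase, had 5259 ± 580 FPKM with R837 and spermidine, 1234 ± 100.3 with R837 and 1136 ± 56.0 in controls.

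With R837, the minor isoforms Hk2 and Eno2 were higher than in control, as was the HIF prolyl hydroxylase Egln3, while Vegfa, the lactate carrier gene Slc16a1, Pdha1 of pyruvate dehydrogenase and 5 of the 9 abundant trunk enzymes were lower. In the limma fit 4 of the 30 genes rose (Hk2, Eno2, Hif1a and Egln3), 11 fell (Tpi1, Pgk1, Pgam1, Pkm, Ldha, Ldhb, Slc16a1, Vegfa, Pdk1, Pdk3 and Pdha1), and 15 did not pass. That is 50.0% called, against 43.2% of all 11768 tested genes (13.6% rose and 29.5% fell) and 41.5% of the 11107 that did not pass the filter through 1 of the 2 groups alone. The median log2 change of the 30 was -0.25, against -0.17 for all tested genes. Median-of-ratios scaling moved the median of all genes to -0.02 and that of the 32 tested genes, Pfkm and Epas1 included, to -0.07. With it 7 of the 32 were higher and 7 lower, against 2136 and 1941 of all 11768 tested genes. Pgk1, Pgam1, Pkm, Ldha and Pdk3 then no longer passed. The share of rises among all calls was 31.6%, and 52.4% with that scaling. The 12 falls of the 32, Epas1 included, were 7 without control library 1 and 8 without control library 2 or R837 library 1. Over all tested genes the 3477 falls were 2569, 2442 and 2887 in these fits. With only R837 library 1 kept in its group the median log2 change of the 32 was -0.37, against -0.17 for all genes. The libraries of the 2 groups did not overlap for 15 of the 30, 3 higher and 12 lower, against 54.0% of all tested genes (15.8% higher and 38.2% lower). Of the 11107 genes that did not pass the filter through 1 of the 2 groups alone, 5822 did not overlap (1617 higher and 4205 lower). In bulk RNA, fewer cells of a type and less RNA per cell cannot be told apart.

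With spermidine added to R837, Hk2, Eno2 and the phosphofructokinase isoform Pfkm were lower than with R837 alone, and Pgk1, Pkm, Egln3 and Vegfa were higher. In this comparison 4 of the 32 rose, 3 fell and 25 did not pass, so 21.9% were called, against 13.6% of all tested genes (5.60% higher and 8.0% lower). The median log2 change was 0.18, against -0.02 for all genes. No overlap was seen for 15 of the 32, 11 higher and 4 lower, against 32.9% of all tested genes (14.3% higher and 18.5% lower). Leaving out R837 library 2 raised the count of rises to 9, and leaving out R837 + spermidine library 2 lowered it to 2. Over all tested genes the 659 rises were 735 and 278 in these fits. With only R837 library 1 kept in its group, the median log2 change of the 32 was 0.21, against -0.02 for all genes. The lone library is then assumed to vary like the other groups. R837 with spermidine against control gave 6 of the 30 higher and 9 lower, 50.0% against 46.8% of all tested genes (14.1% higher and 32.7% lower) and 45.2% of those that did not pass the filter through 1 of the 2 groups alone. Of the 32, Pfkm and Epas1 included, 10 were higher and 4 lower with median-of-ratios scaling, against 2395 and 2168 of all 11768 tested genes. That scaling moved the share of rises among all calls to 52.5%, against 30.1% without it. The 10 falls of the 32 were 6 without control library 1, and 5 without control library 2 or R837 + spermidine library 2. Over all tested genes the 3850 falls were 2978, 2888 and 3154 in these fits. The libraries of these 2 groups did not overlap for 17 of the 30, 8 higher and 9 lower, against 62.9% of all tested genes (19.6% higher and 43.4% lower). Of the 11035 genes that did not pass the filter through 1 of these 2 groups alone, 6786 did not overlap (2060 higher and 4726 lower). Each pair of comparisons shares 1 group of libraries, so opposite or equal signs between them are not independent, and the values of all 3 groups are given side by side below.

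**Figure D1:**
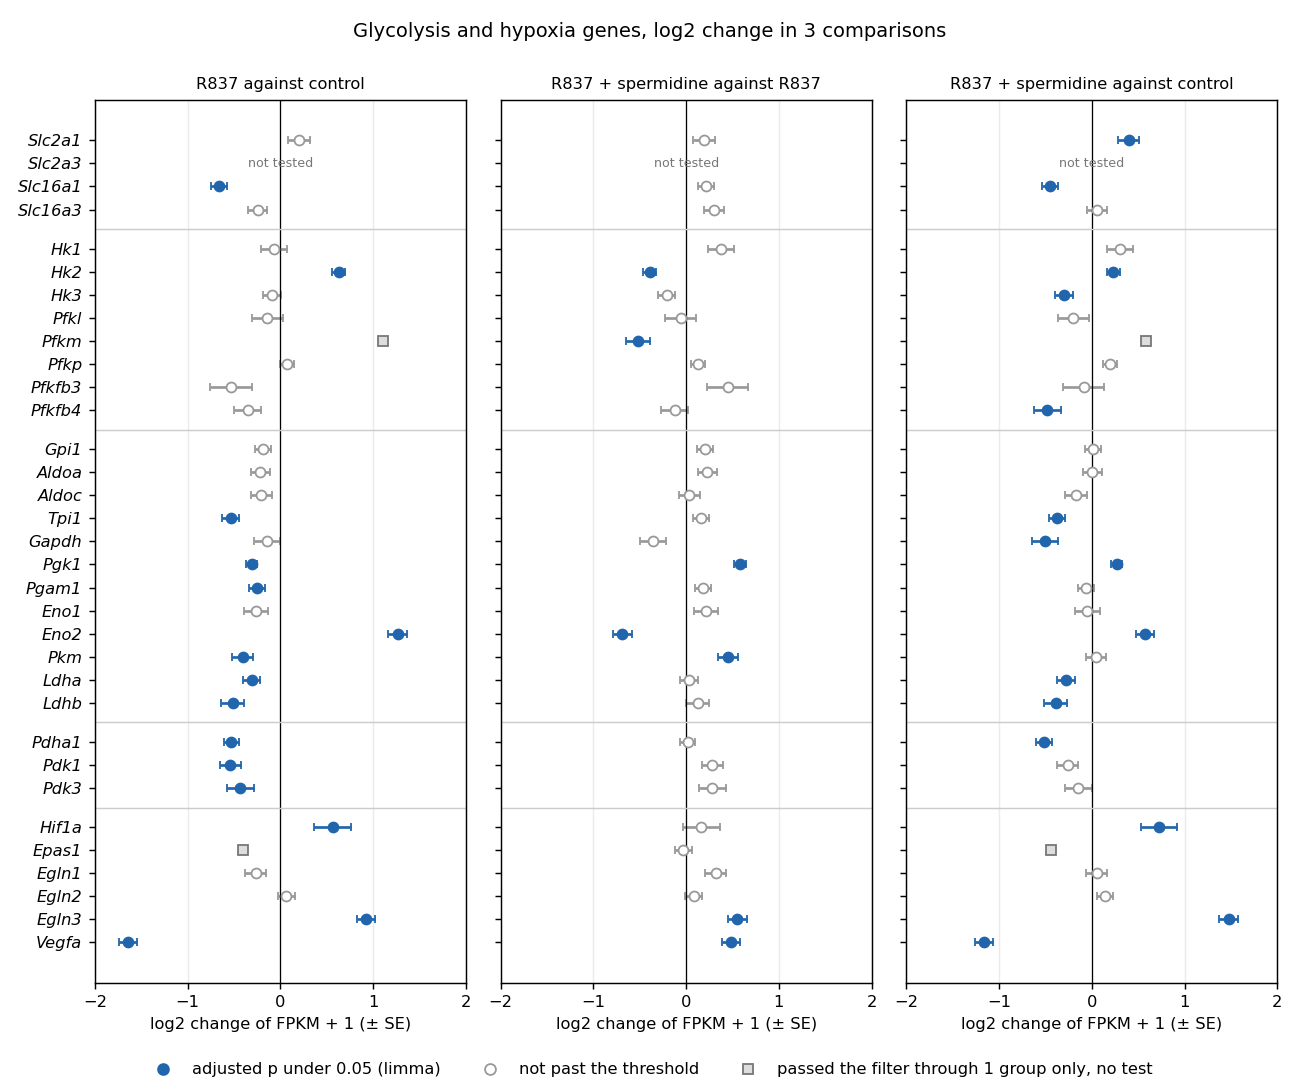
Log2 change of FPKM + 1 with its standard error (x axis) for the 32 tested of the 33 genes (y axis, grouped by role; Slc2a3 is marked as not tested) in the 3 comparisons, from limma; filled circles passed an adjusted p of 0.05, open ones did not, and squares are Pfkm and Epas1 against control, shown without a test. With R837, Hk2, Eno2, Hif1a and Egln3 lie right of 0 and Vegfa lies farthest left at -1.65; with spermidine added, Pgk1 lies right and Eno2 left of 0, at 0.58 and -0.69.

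Hexokinases trap glucose in the cell as glucose 6-phosphate, and Hk2 is the isoform known to be induced in activated immune cells. In libraries 1, 2 and 3, an order kept below, Hk2 had 25.0, 25.8 and 25.9 FPKM with R837 and spermidine, 32.3, 36.6 and 32.8 with R837, and 20.5, 22.6 and 21.6 in controls. The 3 groups did not overlap, with R837 highest and control lowest. Hk2 rose by a log2 change of 0.63 ± 0.07 with R837 against control (SE; limma adjusted p = 0.00015) and fell by 0.39 ± 0.07 with spermidine added (limma adjusted p = 0.0099). That fall was 0.33 with only R837 library 1 kept and missed the threshold (limma adjusted p = 0.059, within 0.0068 to 0.059). Above control, R837 + spermidine was higher by 0.23 ± 0.07 (limma adjusted p = 0.028), but not without control library 1 or 3 (0.1 and 0.072) or any R837 + spermidine library (0.051, 0.073 and 0.082), within 0.0016 to 0.1. Hk3, an isoform typical of myeloid cells, was the main hexokinase transcript, with 110 ± 2.14, 129 ± 17.2 and 136 ± 5.55 FPKM in the R837 + spermidine, R837 and control groups. It fell in R837 + spermidine against control by 0.30 (limma adjusted p = 0.026), but not without control library 1 or 2 (0.075 and 0.088) or any R837 + spermidine library (0.069, 0.053 and 0.07), within 0.0016 to 0.41. Hk2 made up 16.9 ± 0.202% of the summed hexokinase FPKM with R837 and spermidine, 19.6 ± 0.948% with R837 and 12.7 ± 0.533% in controls. Hk1, the broadly expressed isoform, had 15.0 ± 1.96, 11.4 ± 1.90 and 12 ± 1.35 FPKM in that order of groups and passed in no comparison.

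Phosphofructokinase 1 commits the sugar to glycolysis, and Pfkm encodes its muscle-type subunit. Pfkm was at 1.52, 1.44 and 1.62 FPKM with R837 and spermidine, 2.15, 3.45 and 2.42 with R837, and 0.580, 0.737 and 0.744 in controls, again without overlap. The ratio of its means was 3.89 with R837 against control, given without a test because no control library reached the filter. Pfkm fell by 0.52 ± 0.13 on the log2 scale with spermidine added to R837 (limma adjusted p = 0.031). The fall with spermidine missed the threshold without control library 2 or 3 (0.052 and 0.05), without any 1 of the R837 + spermidine libraries (0.073, 0.1 and 0.08) and with only R837 library 1 kept (0.17), over a range of limma adjusted p of 0.026 to 0.17 in all alternatives. Pfkm stayed a minor subunit, at 4.22 ± 0.259%, 7.42 ± 1.05% and 2.08 ± 0.388% of the phosphofructokinase 1 sum in the same order of groups. The platelet-type Pfkp made up most of the sum, at 26.5 ± 0.837, 24.3 ± 1.45 and 23.1 ± 1.43 FPKM, and neither it nor the liver-type Pfkl, at 8.18 ± 0.529, 8.73 ± 2.39 and 9.58 ± 1.32 FPKM, was called in any comparison. With R837 + spermidine against control, Pfkp passed as a rise of 0.19 without R837 library 2 (limma adjusted p = 0.038) and with only R837 library 1 kept (0.037), against 0.063 with all libraries and 0.0032 to 0.21 over the alternatives.

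The bifunctional enzymes Pfkfb3 and Pfkfb4 set the level of fructose 2,6-bisphosphate, an activator of phosphofructokinase 1. Pfkfb3 was at 7.57, 14.3 and 7.19 FPKM with R837 and spermidine, 6.35, 5.74 and 7.56 with R837, and 11.3, 9.25 and 9.21 in controls. The R837 libraries lay below the controls, but R837 + spermidine library 2 was higher than any control, and no comparison passed. Without that library the change of -0.53 with R837 against control did pass (limma adjusted p = 0.0075, against 0.08 with it and a range of 0.0075 to 0.24 over the alternatives). Pfkfb4 had 1.98 ± 0.219, 2.24 ± 0.262 and 3.19 ± 0.856 FPKM in the R837 + spermidine, R837 and control groups, and was called lower only in R837 + spermidine against control, by 0.48 on the log2 scale (limma adjusted p = 0.022). That call was lost without control library 2 (0.063) and without R837 + spermidine library 2 or 3 (0.054 and 0.074), within a limma range of 0.017 to 0.12. Leaving out control library 3 made Pfkfb4 pass as a fall of 0.46 with R837 against control (limma adjusted p = 0.045, within 0.045 to 0.36).

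Enolase makes phosphoenolpyruvate, and Eno2 is its neuronal-type isoform, known as a HIF target. Eno2 was at 3.09, 2.69 and 3.46 FPKM with R837 and spermidine, 4.92, 5.71 and 6.11 with R837, and 1.75, 1.76 and 1.69 in controls. Every R837 library was above every R837 + spermidine library, and these were above every control. On the log2(FPKM + 1) scale Eno2 had the largest rise of the 30 genes with R837 against control, a log2 change of 1.26 ± 0.10 (limma adjusted p = 1.3e-05), and fell by 0.69 ± 0.10 with spermidine added (limma adjusted p = 0.0032). The fall was 0.54 with only R837 library 1 kept (limma adjusted p = 0.052, within 0.003 to 0.052). Eno1, the common isoform, had 105 ± 5.84, 91.3 ± 18.8 and 108 ± 6.84 FPKM and was not called, so Eno2 was 2.87 ± 0.468%, 5.87 ± 0.981% and 1.58 ± 0.0698% of the enolase sum in the R837 + spermidine, R837 and control groups. The Eno2 window printed above held neither ACGTG nor GCGTG, while that of Hk2 held ACGTG 2 times on either strand. Letters outside the 250 bases were not searched, so the windows do not show whether either gene has a HIF site.

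**Figure D2:**
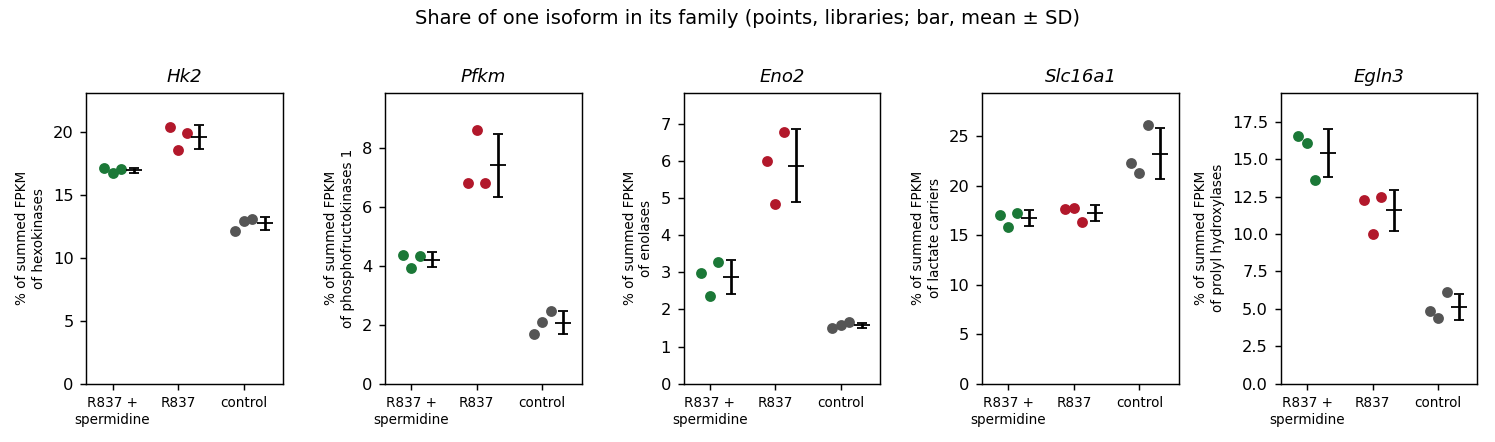
Share of 1 isoform in the summed FPKM of its family (y axis, percent), in each library of the 3 groups (x axis); points are libraries 1 to 3 from left to right and bars are mean ± SD, n = 3. Hk2, Pfkm and Eno2 shares are highest with R837 and lowest in control, the Slc16a1 share is highest in control, and the Egln3 share is highest with R837 and spermidine.

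The 9 genes of the trunk between glucose 6-phosphate and lactate (Gpi1, Aldoa, Tpi1, Gapdh, Pgk1, Pgam1, Eno1, Pkm and Ldha) held most of the transcript of the pathway. They summed to 1425, 1439 and 1457 FPKM with R837 and spermidine, 1118, 1394 and 1173 with R837, and 1531, 1525 and 1434 in controls. All 3 R837 libraries lay below the other 6, with library 2 nearest to them. That library was the highest of the 3 R837 libraries for 8 of the 9 genes and for 23 of the 33 genes, whereas the erythroid and neutrophil markers were highest in R837 library 3; the part of those cells in the trunk values was not tested. Without R837 library 2, Gpi1, Aldoa, Eno1, Egln1 and Hk3 also fell with R837 against control, by 0.27, 0.33, 0.42, 0.39 and 0.20 on the log2 scale (limma adjusted p of 0.0087, 0.0084, 0.0027, 0.0057 and 0.023, against 0.096, 0.11, 0.13, 0.081 and 0.46 with that library). In the same fit Gpi1, Aldoa, Pgam1, Eno1 and Egln1 also rose with spermidine added, by 0.28, 0.33, 0.26, 0.38 and 0.44 (limma adjusted p of 0.023, 0.025, 0.045, 0.017 and 0.012, against 0.14, 0.18, 0.18, 0.3 and 0.093 with that library). With only R837 library 1 kept in its group, the same 5 genes fell with R837 against control (Gpi1 0.048, Aldoa 0.022, Eno1 0.0082, Egln1 0.046 and Hk3 0.037, limma adjusted p), and Eno1 rose with spermidine added (0.044). Over all alternatives the highest adjusted p of these changes was 0.94, for Gpi1 with R837 against control after median-of-ratios scaling.

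**Figure D3:**
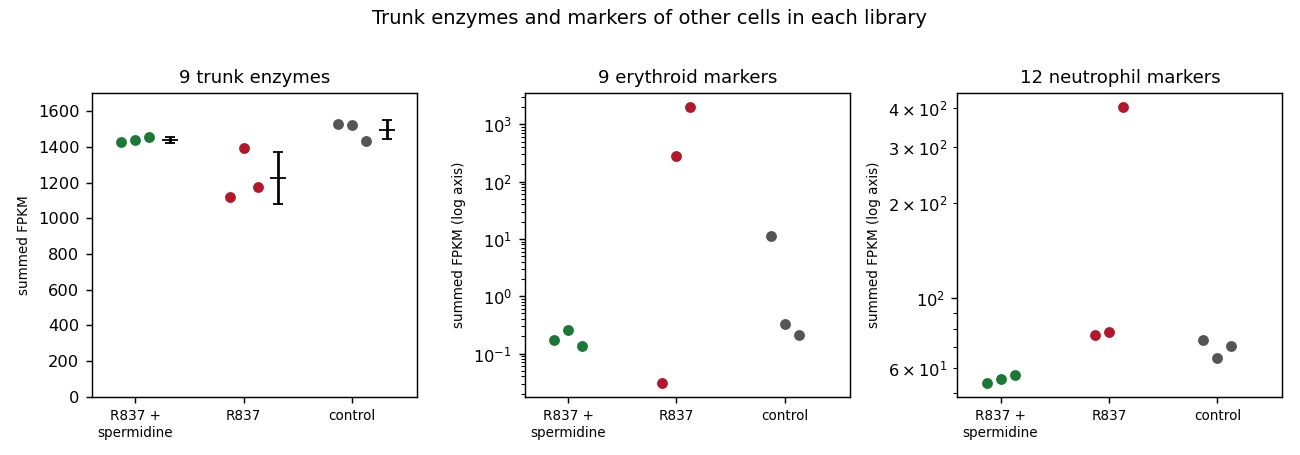
Summed FPKM of the 9 trunk enzymes (left, linear axis from 0; bars are mean ± SD, n = 3) and of erythroid and neutrophil markers (middle and right, log axes) in each library of the 3 groups (x axis). R837 library 2, the middle point of its group, has the highest trunk sum of the 3 R837 libraries, 1394, and R837 library 3 has the highest marker sums, 1991 and 401.

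Within the trunk the genes did not move alike. Pgk1, which makes the first ATP of the pathway, was at 163, 171 and 169 FPKM with R837 and spermidine, 109, 110 and 116 with R837, and 141, 142 and 134 in controls. It was lower with R837 than in control by 0.31 ± 0.06 on the log2 scale (limma adjusted p = 0.0033) and higher with spermidine added by 0.58 ± 0.06 (limma adjusted p = 0.00071), ending above control by 0.27 ± 0.06 (limma adjusted p = 0.0067; 0.12 with quantile normalization, within 0.00035 to 0.12). Of the 7 genes called with spermidine added to R837, Pgk1 was the only one that passed in every alternative run. The fall with R837 was -0.13 after median-of-ratios scaling and did not pass (limma adjusted p = 0.13, within 0.00057 to 0.13). Reads of Pgk1 may be shared with its annotated copy Pgk1-rs7, listed at 10.7% of the Pgk1 sum, and the calls were the same with the copy added. The Pgk1 window shown above holds ACGTG 2 times on either strand.

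Tpi1, the triose phosphate isomerase, had 59.0, 49.6 and 49.9 FPKM with R837 and spermidine, 47.1, 49.0 and 45.0 with R837, and 74.7, 65.0 and 66.7 in controls. Both stimulated groups lay below control, by 0.38 ± 0.09 with spermidine and 0.54 ± 0.09 without it (log2; limma adjusted p = 0.0081 and 0.0013), and the R837 + spermidine group was not called against R837 (limma adjusted p = 0.27). The fall with spermidine did not pass after median-of-ratios scaling (limma adjusted p = 0.15, within 0.0045 to 0.15). Gapdh, often used as a loading control, was at 103, 76.7 and 95.1 FPKM with R837 and spermidine, 98.3, 139 and 116 with R837, and 128, 129 and 130 in controls. It fell in R837 + spermidine against control by 0.50 ± 0.14 (limma adjusted p = 0.016), but not without R837 + spermidine library 2 (0.053, within 0.005 to 0.11), and it passed in neither other comparison. The annotated copy Gapdh-ps15 was listed at 21.8% of the Gapdh sum.

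Pkm, the pyruvate kinase that makes pyruvate and ATP, was the most abundant of the 33 genes, at 309, 332 and 340 FPKM with R837 and spermidine, 210, 287 and 226 with R837, and 325, 328 and 299 in controls. All R837 libraries lay below those of both other groups. Pkm fell by 0.41 ± 0.11 with R837 against control (limma adjusted p = 0.017) and rose by 0.45 ± 0.11 with spermidine added (limma adjusted p = 0.031). The fall missed the threshold without control library 1 or 2 (0.055 and 0.058) and without R837 library 1 or 3 (0.057 and 0.051), within a limma range of 0.00037 to 0.15. The rise missed it without control library 1 or 2 (0.051 and 0.052), R837 library 1 or 3 (0.082 and 0.069) or any R837 + spermidine library (0.052, 0.092 and 0.1), within 0.0016 to 0.1. Gm49759, a gene on the same strand, overlaps 15.3% of the exonic bases of Pkm and was listed at up to 45.6 FPKM, so reads may be divided between them. Pgam1, a phosphoglycerate mutase, had 292 ± 19.7, 256 ± 22.9 and 305 ± 12.7 FPKM in the R837 + spermidine, R837 and control groups. Its fall of 0.25 with R837 against control (limma adjusted p = 0.04) was lost without any 1 control library (0.11, 0.12 and 0.058), R837 library 1 or 3 (0.11 and 0.12) or R837 + spermidine library 3 (0.062), within 0.0043 to 0.58, and its annotated copy Pgam1-ps2 was listed at 26.3% of its sum. Aldoa, the main aldolase, had 234 ± 18.7, 201 ± 27.2 and 233 ± 7.93 FPKM, and Gpi1, the glucose phosphate isomerase, 49.7 ± 0.809, 43.1 ± 4.21 and 49.2 ± 3.08, and neither was called with all libraries. The minor aldolase gene Aldoc, at 1.66 ± 0.25, 1.59 ± 0.234 and 1.99 ± 0.282 FPKM, was called in no comparison.

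Lactate dehydrogenase turns pyruvate into lactate, and Ldha encodes the subunit favoured in glycolytic cells. Ldha had 115, 122 and 126 FPKM with R837 and spermidine, 108, 134 and 114 with R837, and 150, 154 and 136 in controls. All 6 stimulated libraries lay below the 3 controls, and the stimulated groups overlapped. Ldha fell by 0.31 ± 0.09 with R837 against control (limma adjusted p = 0.025) and by 0.28 ± 0.09 in R837 + spermidine against control (limma adjusted p = 0.036). The first call was lost without control library 1 or 2 (0.08 and 0.091) or R837 library 1 or 3 (0.085 and 0.067), within 0.0025 to 0.32, and the second without control library 1 or 2 (0.1 and 0.12) or any R837 + spermidine library (0.11, 0.072 and 0.058), within 0.007 to 0.53. Ldhb, the heart-type subunit, had 2.95 ± 0.333, 2.64 ± 0.538 and 4.17 ± 0.408 FPKM in the R837 + spermidine, R837 and control groups and fell by 0.51 ± 0.13 with R837 (limma adjusted p = 0.0096; 0.079 with quantile normalization, within 0.0037 to 0.079). In R837 + spermidine against control its fall of 0.39 (limma adjusted p = 0.031) was lost without any 1 control (0.1, 0.058 and 0.053) or R837 + spermidine library 1 or 2 (0.065 and 0.1), within 0.013 to 0.26.

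Slc2a1 encodes GLUT1, the more abundant of the 2 glucose carriers among the 33 genes, at 68.0, 57.1 and 61.4 FPKM with R837 and spermidine, 54.5, 61.1 and 47.4 with R837, and 41.7, 48.3 and 51.1 in controls. The R837 + spermidine libraries were all above the controls, and the R837 libraries overlapped both. Slc2a1 was called in R837 + spermidine against control, higher by 0.40 ± 0.12 on the log2 scale (limma adjusted p = 0.02), and did not pass without control library 1 (0.078) or R837 + spermidine library 1 (0.07), within 0.0035 to 0.078. The difference between R837 + spermidine and R837 was 0.19 ± 0.12 (limma adjusted p = 0.29), and that between R837 and control 0.20 ± 0.12 (limma adjusted p = 0.19; 0.03 after median-of-ratios scaling, within 0.03 to 0.48). Slc2a3 (GLUT3) was at 0.189, 0.228 and 0.266 FPKM with R837 and spermidine, 0.180, 0.277 and 1.43 with R837, and 0.343, 0.426 and 0.390 in controls. Its 1 high value was in R837 library 3, the library with the highest neutrophil and erythroid marker sums.

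Monocarboxylate carriers move lactate across the membrane. Slc16a1 (MCT1) had 4.90, 4.16 and 4.78 FPKM with R837 and spermidine, 3.58, 4.24 and 3.72 with R837, and 6.82, 6.43 and 6.68 in controls. It fell by 0.66 ± 0.09 with R837 against control and by 0.45 ± 0.09 in R837 + spermidine against control (limma adjusted p = 0.00031 and 0.0029), and both calls passed in every alternative. Slc16a3 (MCT4), the exporter of highly glycolytic cells, was the larger of the pair, at 23.0 ± 0.838, 18.5 ± 1.52 and 22.2 ± 2.86 FPKM in the R837 + spermidine, R837 and control groups, and was called in no comparison. Without control library 3 it passed as a fall of 0.35 with R837 against control (limma adjusted p = 0.02, against 0.085 with that library and 0.02 to 0.64 over the alternatives).

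Pyruvate dehydrogenase takes pyruvate into the mitochondrial citric acid cycle, and its kinases switch it off. Pdha1, its catalytic subunit gene, was at 9.76, 10.6 and 11.6 FPKM with R837 and spermidine, 9.88, 11.4 and 10.3 with R837, and 15.7, 15.7 and 15.5 in controls. All 6 stimulated libraries lay below the controls, and the stimulated groups overlapped. It fell by 0.53 ± 0.08 with R837 and by 0.51 ± 0.08 with R837 and spermidine, each against control (limma adjusted p = 0.0009 and 0.0011), in every alternative. Map3k15, on the opposite strand, overlaps 16.1% of the exonic bases of Pdha1 and was listed at up to 2.99 FPKM. Whether the counting used strand is not given, so reads may be divided between them. The kinase gene Pdk1, a known HIF target, had 1.24, 1.60 and 1.27 FPKM with R837 and spermidine, 1.14, 0.813 and 0.907 with R837, and 1.98, 1.53 and 2.03 in controls. It fell by 0.54 ± 0.11 with R837 against control (limma adjusted p = 0.0048), and was not called for spermidine added to R837, at 0.28 ± 0.11 (limma adjusted p = 0.14). With only R837 library 1 kept, the fall against control was 0.40 (limma adjusted p = 0.081, within 0.0048 to 0.081). Pdk3 was at 3.25 ± 0.337, 2.50 ± 0.327 and 3.76 ± 0.931 FPKM in the R837 + spermidine, R837 and control groups. Its fall of 0.43 with R837 (limma adjusted p = 0.04) was lost without control library 1 or 3 (0.14 and 0.1), R837 library 1 or 2 (0.1 and 0.089) or R837 + spermidine library 2 or 3 (0.053 and 0.057) and with only R837 library 1 kept (0.11), within 0.0094 to 0.18.

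Hif1a, the oxygen-sensitive subunit of HIF-1, had 26.7, 32.9 and 29.5 FPKM with R837 and spermidine, 29.5, 18.4 and 33.4 with R837, and 18.0, 15.3 and 19.5 in controls. R837 library 2 lay within the control range, and all other stimulated libraries lay above it. The rise was 0.73 ± 0.20 in R837 + spermidine against control (limma adjusted p = 0.014) and 0.56 ± 0.20 with R837 against control (limma adjusted p = 0.044). The first was lost without control library 2 (0.055) or R837 + spermidine library 2 (0.05), within 0.00086 to 0.055. The second was lost without any 1 control (0.089, 0.14 and 0.06), R837 library 1 or 3 (0.12 and 0.13) or any R837 + spermidine library (0.055, 0.054 and 0.062), within 0.001 to 0.14, and without R837 library 2 it was 0.81 (limma adjusted p = 0.001). Epas1, the related HIF-2α subunit, was low at 0.839, 0.739 and 0.703 FPKM with R837 and spermidine, 0.871, 0.802 and 0.713 with R837, and 1.39, 1.53 and 1.24 in controls. All stimulated libraries were below the controls. No test is given against control, because Epas1 entered the fit only through the control libraries.

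The prolyl hydroxylases mark HIF-α for destruction, and Egln3 (PHD3) is itself a strong HIF target. Egln3 had 7.69, 7.77 and 6.42 FPKM with R837 and spermidine, 4.71, 4.50 and 4.70 with R837, and 1.95, 1.72 and 2.28 in controls. Unlike Hk2, Pfkm and Eno2, it was highest with R837 and spermidine, and the 3 groups did not overlap. It rose by 0.92 ± 0.10 with R837 against control and by a further 0.55 ± 0.10 with spermidine added (limma adjusted p = 8.5e-05 and 0.0083), 1.48 ± 0.10 in all (limma adjusted p = 7e-06). The second step was 0.53 with only R837 library 1 kept (limma adjusted p = 0.08, within 0.0074 to 0.08). Egln3 made up 15.4 ± 1.59%, 11.6 ± 1.36% and 5.12 ± 0.884% of the summed hydroxylase FPKM in the R837 + spermidine, R837 and control groups. Egln2, the most abundant of the 3, had 26.1 ± 1.24, 24.7 ± 2.34 and 23.6 ± 1.71 FPKM, Egln1 had 13.9 ± 0.790, 11 ± 1.90 and 13.3 ± 0.534, and neither was called.

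Vegfa encodes a growth factor for blood vessels and is a textbook HIF target. It was at 7.37, 7.98 and 6.83 FPKM with R837 and spermidine, 4.87, 5.82 and 4.39 with R837, and 18.4, 17.7 and 17.3 in controls. The groups did not overlap, and control was highest. Vegfa fell by 1.65 ± 0.10 with R837 against control (limma adjusted p = 2.2e-06), the largest change of the 30 genes in size on the log2(FPKM + 1) scale, and its mean was 71.7% lower. It rose by 0.48 ± 0.10 with spermidine added (limma adjusted p = 0.015) and stayed below control by 1.16 ± 0.10 (limma adjusted p = 2.7e-05). The rise was 0.43 without R837 + spermidine library 2 (limma adjusted p = 0.062, within 0.0034 to 0.062). Vegfa and Egln3 thus differed in direction with R837 against control while both were higher with spermidine added.

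**Figure D4:**
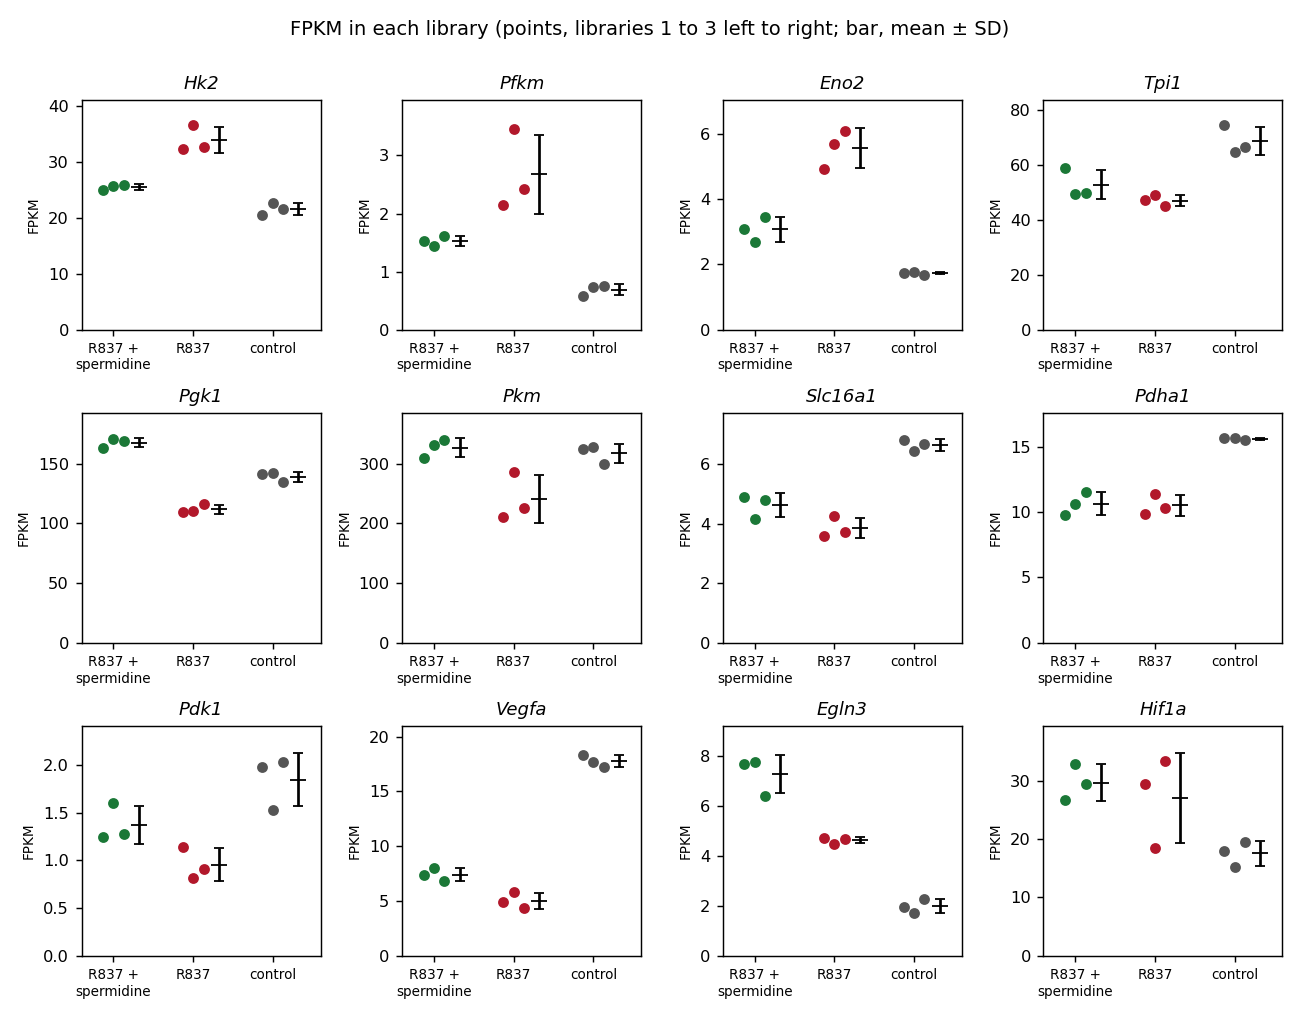
FPKM (y axis, linear from 0) of 12 of the genes in each library of the 3 groups (x axis); points are libraries 1 to 3 from left to right and bars are mean ± SD, n = 3. Hk2, Pfkm and Eno2 are highest with R837, Pgk1 and Egln3 are highest with R837 and spermidine, and Vegfa, Tpi1, Slc16a1 and Pdha1 are highest in control.

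Other genes of the HIF response also moved both ways. Of 25 tested HIF targets outside the 33 genes, 24 did not depend on 1 group alone to pass the filter. Of these 24, 5 rose and 7 fell with R837 against control (50.0%, against 43.2% of all tested genes), and 10 rose and 6 fell in R837 + spermidine against control (66.7%, against 46.8%). Among all genes that did not pass the filter through 1 of the 2 groups alone, 41.5% and 45.2% were called in these comparisons. With spermidine added to R837, 5 of the 25 rose and 4 fell (36.0%, against 13.6%). The median log2 changes were -0.14 with R837 against control, 0.11 with spermidine added and 0.12 in R837 + spermidine against control, against -0.17, -0.02 and -0.17 for all tested genes. The 5 rises with spermidine added were 3 without R837 + spermidine library 1 or 3 or with only R837 library 1 kept, the 4 falls were 2 with only R837 library 1 kept, and the 11 rises against control over all 25 were 7 without control library 2 or R837 + spermidine library 1 or 3. Edn1, the vasoconstrictor endothelin 1, had 45.8, 158 and 7.19 FPKM on average in the R837 + spermidine, R837 and control groups, and Nos2, the inducible nitric oxide synthase, had 133, 242 and 38.7. Both followed the order of Hk2 and Eno2, with falls of 1.77 ± 0.10 and 0.86 ± 0.06 when spermidine was added (limma adjusted p = 3.7e-05 and 0.00014). Bnip3, a mitophagy receptor, and Gbe1, the glycogen branching enzyme, were higher with spermidine added, by 0.92 ± 0.14 and 0.95 ± 0.16 (limma adjusted p = 0.0038 and 0.0067). Bnip3 had 9.18 FPKM with R837 and spermidine, 4.36 with R837 and 5.54 in control, and with only R837 library 1 kept its rise was 0.80 (limma adjusted p = 0.067, within 0.0026 to 0.067). Ndrg1 rose against control by 1.12 ± 0.07 with R837 and spermidine and by 1.01 ± 0.07 with R837 (limma adjusted p = 3.8e-06 and 4.5e-06). Of 14 tested HIF regulators, such as subunits of the ubiquitin ligase that destroys HIF-α, 2 rose and 3 fell with R837 against control. That is 35.7% called, against 43.2% of all tested genes. With spermidine added, limma called 0 of the 14, against 13.6% of all tested genes, and 2 had an unadjusted p under 0.05. Those rises with R837 were 1 without control library 1 or 2 or R837 library 2, and those falls 1 without control library 2 or 3 and 0 with median-of-ratios scaling.

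Beyond the trunk, Slc2a6, a glucose carrier-like protein of lysosomes, had 113, 204 and 46.0 FPKM in the R837 + spermidine, R837 and control groups. It rose by 2.11 ± 0.10 with R837 against control and fell by 0.83 ± 0.10 with spermidine added (limma adjusted p = 5.7e-07 and 0.0014). Of 10 tested sugar and monocarboxylate transport genes outside the 33, Slc2a6 among them, 3 rose and 5 fell with R837 against control (80.0%, against 43.2% of all tested genes), and 1 rose and 2 fell with spermidine added (30.0%, against 13.6%). The 5 falls were 3 without control library 1 or 2 or R837 library 1 and with median-of-ratios scaling. The riser was Emb, which escorts monocarboxylate carriers to the membrane, by 0.71 ± 0.12 (limma adjusted p = 0.0073), and Slc16a6 fell by 1.08 ± 0.08 (limma adjusted p = 0.00015). Among 14 other tested glycolytic and gluconeogenic enzymes 0 rose and 6 fell with R837 against control, 42.9% called against 43.2% of all tested genes (9 had an unadjusted limma p under 0.05), and the falls were 2 without control library 2, 3 without R837 library 1 or 3 and 1 with median-of-ratios scaling. With spermidine added, 2 rose and 1 fell (21.4%, against 13.6%), and the fall was lost without any 1 R837 + spermidine library or with only R837 library 1 kept. Pcx, the pyruvate carboxylase, had 4.75, 2.10 and 2.65 FPKM in the 3 groups and rose by 0.90 ± 0.10 (limma adjusted p = 0.0012).

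The pyruvate dehydrogenase list held 10 further tested genes, of which Pdk2 passed the filter only through the controls. Of the other 9, 6 fell and 0 rose with R837 against control, so 66.7% were lower, against 29.5% of all tested genes. Among all genes that did not pass the filter through 1 of the 2 groups alone, 29.0% were lower. Pdhb, the partner subunit of Pdha1, was at 23.9, 23.4 and 25.8 FPKM with R837 and spermidine, 22.1, 22.4 and 22.1 with R837, and 33.3, 33 and 33.7 in controls, and fell by 0.56 ± 0.06 with R837 and 0.44 ± 0.06 with R837 and spermidine against control (limma adjusted p = 0.00012 and 0.00062). With Pdk2 counted, 7 fell (7 had an unadjusted limma p under 0.05), which became 3 without control library 1, 4 without control library 2 and 3 with median-of-ratios scaling. With spermidine added, limma called 0 of the 10, against 13.6% of all tested genes, and 1 had an unadjusted p under 0.05. The pentose phosphate pathway branches from glucose 6-phosphate to make NADPH and ribose. Of its 10 tested genes 6 were lower and 0 higher with R837 against control. That is 60.0% lower, against 29.5% of all tested genes, and 7 of the 10 had an unadjusted limma p under 0.05. The 6 falls were 4 with median-of-ratios scaling, where 1941 of all 11768 genes fell, and 5 to 8 without 1 library at a time. With spermidine added 3 of the 10 were higher and 0 lower (30.0% higher, against 5.60% of all tested genes), and 4 had an unadjusted limma p under 0.05. Pgd, the second dehydrogenase of the pathway, had 144, 145 and 146 FPKM with R837 and spermidine, 88.1, 111 and 86.8 with R837, and 104, 109 and 101 in controls. It rose by 0.61 ± 0.10 with spermidine added (limma adjusted p = 0.0046) and passed in every alternative. The other 2 risers, Taldo1 and G6pdx, at 0.63 and 0.30 (limma adjusted p = 0.024 and 0.026), both missed the threshold without R837 library 1 (0.066 and 0.051) or R837 + spermidine library 2 (0.075 and 0.093) or 3 (0.084 and 0.088). Taldo1 also missed it without R837 library 3 (0.058) or R837 + spermidine library 1 (0.052) and G6pdx without control library 2 (0.052) or with only R837 library 1 kept (0.096), within 0.0016 to 0.084 and 0.021 to 0.096.

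Among 21 tested regulators upstream of glycolysis, 4 rose and 6 fell with R837 against control, 1 rose and 1 fell with spermidine added, and 5 rose and 9 fell in R837 + spermidine against control. The shares called were 47.6%, 9.52% and 66.7%, against 43.2%, 13.6% and 46.8% of all tested genes. With median-of-ratios scaling the 6 falls and the 9 falls were 3 each, and without 1 library at a time they were 4 to 7 and 6 to 9. Ikbke, a kinase known to act on glycolysis in Toll-like receptor-activated dendritic cells, had 25.9, 49.1 and 12.5 FPKM in the R837 + spermidine, R837 and control groups, rose by 1.89 ± 0.07 with R837 and fell by 0.90 ± 0.07 with spermidine added (limma adjusted p = 1.3e-07 and 0.0002). Myc, a transcription factor that raises glycolytic genes, had 6.72, 7.89 and 3.93 FPKM and rose by 0.86 ± 0.11 with R837 against control (limma adjusted p = 0.00025). Arrdc4, a suppressor of glucose uptake, had 37.5, 38.5 and 36.4 FPKM with R837 and spermidine, 25.1, 16.0 and 27.0 with R837, and 14.7, 13.2 and 14.0 in controls. It was the 1 riser of the list with spermidine added, by 0.73 ± 0.16 (limma adjusted p = 0.021), which missed the threshold without any 1 R837 + spermidine library (0.055, 0.072 and 0.063), within 0.0027 to 0.072.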

How the data were processed

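The deposited values were FPKM per gene and library; per the submitters' processing notes HISAT2 and StringTie were used, and the builds mm8 and mm10 are named, without version or role. Gene IDs matched GENCODE mouse release M21 (GRCm38) for 52403 of 52550 (99.7%), and names and coordinates come from there. Whether the counting used strand is not given in the sources used here. Read counts were not used, so no count model was fitted.

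From the deposited FPKM, log2(FPKM + 1) was computed and fitted with limma 3.58.1 (R 4.3.3) with a mean-variance trend on all 9 libraries as 3 groups. A fold on this scale understates the change of low genes. The filter was an FPKM of at least 1 in at least 3 libraries (11768 genes). P-values were two-sided and adjusted by Benjamini-Hochberg over all tested genes in each comparison, with a threshold of 0.05. Shares of a family and sums use FPKM as deposited. Alternatives covered pseudocounts, filters, scaling, a replicate block and leaving out each library. 4 were added after seeing the data: keeping only R837 library 1 in its group, adding annotated copies to their gene, counting without genes that passed the filter through 1 of the 2 groups alone, and running the other gene lists under the same settings.

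All 33 genes are named. Other genes come from the lists, up to 4 a list with the largest change among those called in a comparison. The 33 genes and the lists were chosen with earlier results of these data known. Taldo1, G6pdx and Pdk2 were named after their values were seen, to complete a count.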

Additional observations from a re-analysis of the deposited data

How the results depend on the processing

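No called change of the 33 genes reversed its sign in any alternative. Over the alternatives of scaling, filter, pseudocount, block and left-out library 1475 of the log2 changes kept their side of the threshold. In the same alternatives 98 no longer passed and 23 came to pass. A change called in neither fit could differ in sign and still count as kept. Hk1 with R837 against control, for example, was at -0.07 and ranged from -0.17 to 0.096. Over the 32 tested genes, Pfkm and Epas1 included, the counts were 5 higher and 12 lower with R837 against control, 4 and 3 with spermidine added to R837, and 7 and 10 in R837 + spermidine against control. Requiring a mean FPKM of at least 5 left 23 of the genes and gave 2 higher with R837 against control, 1 lower with spermidine added and 4 higher in R837 + spermidine against control. Of the 6322 genes left in all, these numbers were 1083, 673 and 1131. Median-of-ratios scaling gave 7 lower with R837 and 4 lower in R837 + spermidine, each against control, and no filter gave 6 lower in R837 + spermidine against control. Over all genes these falls were 1941, 2168 and 3755. With median-of-ratios scaling Hk1, Pfkp and Egln2 also rose in the last comparison, with limma adjusted p of 0.021 for Hk1 (up to 0.26 over the alternatives) and 0.014 for Egln2 (up to 0.52). Leaving out 1 library at a time gave 4 to 5 higher and 7 to 16 lower with R837 against control, 2 to 9 higher and 2 to 3 lower with spermidine added, and 5 to 8 higher and 5 to 10 lower in R837 + spermidine against control. Over all tested genes these ranges were 1369 to 1744 and 2442 to 3805, 278 to 735 and 456 to 905, and 1333 to 1996 and 2888 to 4491. With only R837 library 1 kept, 0 were lower with spermidine added by limma, with 3 at an unadjusted p under 0.05. The cause of these shifts was not tested. With a replicate block the counts were 5 and 11, 4 and 3, and 7 and 9; the calls of Pdk3 with R837 against control (0.057), Ldhb in R837 + spermidine against control (0.052) and G6pdx with spermidine added (0.055) did not pass in it. The replicate numbers do not pair the libraries: deviations of same-numbered libraries correlated between -0.091 and 0.159, and 4 of 9 libraries correlated best with one of their own number.

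With 3 libraries a group, small changes of the abundant enzymes sit near the threshold, and Pfkm, Epas1, Pdk1 and Aldoc lie at few counted units. FPKM is relative to all mapped fragments, so a change in total RNA per cell is not seen. Pgam1, Gapdh, Pgk1 and Eno1 have annotated copies that share sequence with them (26.3%, 21.8%, 10.7% and 2.86% of the sum), and adding the copies changed no call. Copies were found only by names built on the gene symbol, so any listed under other names were not added. Messenger levels say nothing of enzyme activity, HIF-1α protein or lactate. The R837 libraries differ from each other in erythroid and neutrophil markers, and in other lists. Basophil, mast cell and eosinophil markers summed to 15.5, 29.4 and 57.8 FPKM in R837 libraries 1, 2 and 3. They summed to 13.3 to 13.8 with R837 and spermidine and 19.2 to 23.3 in controls. B cell markers summed to 3.82, 4.57 and 13.8 in the R837 libraries, 3.30 to 3.64 with R837 and spermidine and 4.79 to 5.28 in controls.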
